A study of Mus musculus with 6 samples.

Results

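Glypicans and syndecans are the main families of core proteins that carry heparan sulfate at the cell surface. The rule for this report was the gene symbol: *Gpc1* to *Gpc6* for the glypicans and *Sdc1* to *Sdc4* for the syndecans, 10 genes in all. Of these, 9 were found among the 25140 genes of the count table. *Gpc5* was not analysed here, since no row carried its symbol. Poly(A) RNA-seq was done on mouse fibroblasts, which the labels describe as primary cardiac fibroblasts from the adult heart of C57BL/6 mice at passage 1. The study's sequencing methods also name cardiac fibroblasts, while its results text calls the cells mouse embryonic fibroblasts. All libraries come from cells kept in 1% FBS for 16 h by the labels, followed by 24 h with vehicle (3 libraries) or with TGFβ at 10 ng/ml (3 libraries), the cytokine that drives fibroblasts to become myofibroblasts, which contract and lay down matrix. The question was how the transcripts of the cells' surface proteoglycans differed after TGFβ. RNA-seq measures neither the proteins nor their heparan sulfate chains.

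A heparan sulfate proteoglycan is a protein to which long chains of alternating sugars are attached, and the chains are then sulfated in patches that bind growth factors, morphogens, chemokines and matrix proteins. Glypicans are globular and are held in the outer leaflet of the membrane by a lipid (GPI) anchor, so they have no cytoplasmic part, whereas syndecans cross the membrane and end in a short tail that binds scaffold proteins and the actin cytoskeleton. Both can present FGF, WNT, BMP and Hedgehog ligands to their receptors or hold them away, and both can be released from the surface by cleavage. In fibroblasts, syndecans also act beside integrins in the attachment to fibronectin.

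All syndecans end in a short tail bound by PDZ-domain scaffold proteins. The end of the coding sequence, which encodes it, is shown because the partners of this tail are among the genes described below. The 36 coding bases before the stop codon are given 5′ to 3′ from the GENCODE M21 transcripts of GRCm38, with the last 12 bases in capitals. The ends were compared position by position back from the stop codon, with no gaps, so stretches that are shifted between genes do not count as identical. Of these 12 bases, 9 were identical in all 4 genes, and of the whole 36 bases 12 were identical.
Sdc1: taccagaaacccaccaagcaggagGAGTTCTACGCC
Sdc2: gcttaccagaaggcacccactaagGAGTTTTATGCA
Sdc3: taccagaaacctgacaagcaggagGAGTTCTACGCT
Sdc4: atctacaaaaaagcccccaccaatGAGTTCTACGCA
In pairwise alignments of their coding sequences, the syndecans were identical at 62.5% to 66.4% of the 553 to 922 bases that could be aligned, which leaves out parts of the longer sequences. Over the aligned bases of the glypicans, *Gpc4* and *Gpc6* were the most alike (66.6%), followed by *Gpc1* and *Gpc6* (60.1%) and *Gpc3* and *Gpc5* (58.4%). No member shared 75-base stretches, the read length, with another gene's transcripts over more than 5.47% of its sequence except *Gpc1* (22.0%) and *Gpc2* (88.7%).

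The libraries held 27851677 to 31072338 counts on genes, and replicates varied with a biological coefficient of variation of 7.97%. All 8 fibroblast markers and all 6 markers of cardiac fibroblasts, such as *Tcf21* and *Gata4*, were detected at a mean of at least 1 CPM (counts relative to the scaled library total, on the usual CPM scale). All 6 markers of the TGFβ response, such as *Acta2* and *Postn*, rose. Of markers of other cells, all 6 of endothelial cells (362.6 to 620.8 CPM summed per library) and all 6 of leukocytes (209 to 344 CPM) were detected, and none of either list differed between the groups past the threshold. Over all genes, 5828 of the 14334 tested (40.7%) differed between TGFβ and vehicle at an adjusted p under 0.05 in edgeR's quasi-likelihood test, 20.5% higher and 20.1% lower with TGFβ.

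Of the 8 members with enough counts to be tested, 5 differed between the groups. *Gpc1* was the member that rose, to 2.04 times its vehicle level. *Gpc3* (51.8% of the vehicle level), *Sdc4* (53.2%), *Gpc6* (53.9%) and *Sdc1* (77.2%) fell. *Gpc4*, *Sdc2* and *Sdc3* did not pass the threshold, and *Gpc2* had too few counts for the test. The 5 members called were also those whose groups did not overlap in CPM, which was the case for 53.3% of all genes tested. The log2 fold changes of *Gpc1*, *Gpc3*, *Gpc6* and *Sdc4* were matched or exceeded in size by 6.80%, 7.91%, 8.87% and 8.48% of all genes tested, that of *Sdc1* by 28.9%. In a bulk sample, fewer cells of a type and less RNA per cell cannot be told apart.

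**Figure D1:**
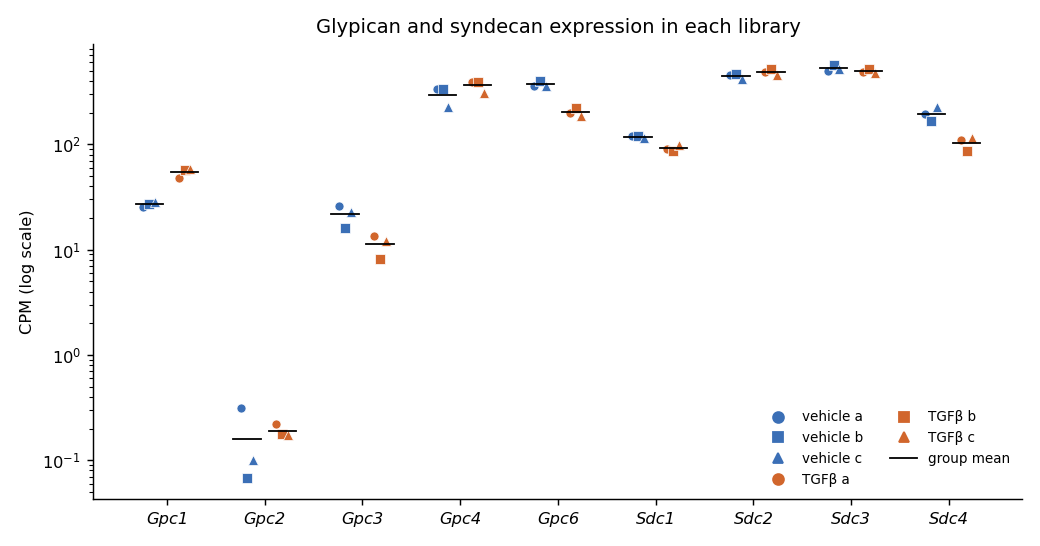
CPM on a log scale for the 9 members found, with 1 point per library (circle, square and triangle for libraries a, b and c of a group, blue for vehicle and orange for TGFβ) and a line at each group mean. The groups of *Gpc1*, *Gpc3*, *Gpc6*, *Sdc1* and *Sdc4* are apart, those of *Gpc4*, *Sdc2* and *Sdc3* overlap, and *Gpc2* lies below 1 CPM in every library.

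*Gpc1* (ENSMUSG00000034220) encodes glypican-1, the glypican best known from adult tissues and a co-receptor for FGF. It lies on the plus strand of chromosome 1 (92831645 to 92860779, GRCm38). Its level was 25.4, 27.0 and 28.2 CPM in vehicle libraries a, b and c and 48.4, 57.4 and 58.4 CPM in TGFβ libraries a, b and c. All TGFβ libraries were above all vehicle libraries, by a gap far wider than the spread within either group. The means were 26.8 ± 1.42 CPM and 54.7 ± 5.51 CPM (SD, n = 3 each), and the log2 fold change was 1.03 (SE, the standard error, 0.08, edgeR adjusted p = 6.85e-05). It lay between 0.97 and 1.11 whichever library was left out. The exons of *Gpc1* overlap those of *Ankmy1* on the opposite strand over 977 bases, but *Ankmy1* was given 22 counts over the 6 libraries and *Gpc1* 7040.

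*Gpc6* (ENSMUSG00000058571) encodes glypican-6, whose loss in people shortens the long bones. It spans more than a megabase of the plus strand of chromosome 14 (116925315 to 117976544). Its counts per library were 11424, 11916 and 10801 with vehicle and 5399, 6235 and 5267 with TGFβ, or 359, 402 and 362 CPM against 197, 223 and 185 CPM. The lowest vehicle library was well above the highest TGFβ library. The log2 fold change was -0.89 (SE 0.08, 95% interval -1.07 to -0.71, adjusted p = 0.000121).

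*Gpc3* (ENSMUSG00000055653) encodes glypican-3, which binds Hedgehog ligands and restrains growth, and whose loss causes the Simpson-Golabi-Behmel overgrowth syndrome. It lies on the minus strand of the X chromosome (52272426 to 52613950). It had 832, 480 and 675 counts with vehicle (26.1, 16.2 and 22.6 CPM) and 371, 228 and 341 with TGFβ (13.6, 8.16 and 11.96 CPM). The groups did not overlap, although the lowest vehicle library (b) was only slightly above the highest TGFβ library (a). The means were 21.7 ± 5.05 CPM and 11.2 ± 2.77 CPM (SD, n = 3 each), and the log2 fold change was -0.95 (SE 0.22, adjusted p = 0.0104). This was the least certain of the 5 calls: it missed an adjusted p of 0.01 and ranged from -1.12 to -0.77 with each library left out. *Gpc3* was highest in library a and lowest in library b of both groups. The summed level of 7 mesothelial and epithelial markers, of which *Upk3b* and *Wt1* were over 1 CPM, had the same order, with 62.4, 23.2 and 27.7 CPM with vehicle and 34.6, 15.3 and 17.6 CPM with TGFβ. The cardiomyocyte markers, of which only *Tnnt2* was over 1 CPM, had this order too. They summed to 59.6, 38.5 and 46.5 CPM with vehicle and 40.6, 27.3 and 37.6 CPM with TGFβ. The part of either list in the values of *Gpc3* was not tested.

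*Gpc4* (ENSMUSG00000031119) encodes glypican-4, which in the brain is secreted by astrocytes and promotes the formation of synapses, as does glypican-6. It is the neighbour of *Gpc3* on the minus strand of the X chromosome (52053021 to 52165252), 107.2 kb away with no annotated gene between them. Its level was 333, 334 and 226 CPM with vehicle and 390, 394 and 307 CPM with TGFβ. Libraries a and b were alike and library c was lower in both groups, so the groups overlapped. The log2 fold change was 0.29 (SE 0.16, adjusted p = 0.191), with a 95% interval from -0.08 to 0.66. That interval takes in both no change and a rise by 0.66. The value rested most on vehicle library c, without which it was 0.13. Library c of both groups also had the most endothelial marker RNA (620.8 against 400.9 and 453.8 CPM with vehicle, 497.3 against 362.6 and 396.8 CPM with TGFβ). *Tek* of that list was instead lowest there (74.6 CPM with vehicle, 83.8 CPM with TGFβ). Among other lists, library c had the most leukocyte marker RNA (344 and 312 CPM) and the least cardiac fibroblast marker RNA (1040 and 752 CPM). Of the cardiac fibroblast list, *Tbx20* (521 and 396 CPM) and *Gata4* (94.1 and 89.4 CPM) were lowest in library c of both groups. *Gata6* was instead lowest in library b of both groups (74.1 and 74.2 CPM), and *Tbx5* was highest in library c (5.97 and 5.89 CPM). *Tcf21* was lowest in vehicle library c but highest in TGFβ library c, and *Hand2* was lowest in vehicle library b and TGFβ library c. Library c also had the highest sums of the fibroblast (42549.9 and 44867 CPM), pericyte and smooth muscle (284 and 165 CPM) and plasma cell lists (139 and 158 CPM). The Schwann cell and neuronal sum was lowest there (63.5 and 157 CPM). The part of these levels in the values of *Gpc4* was not tested.

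*Gpc2* (ENSMUSG00000029510), a glypican of the developing nervous system on chromosome 5 (minus strand, 138273655 to 138280005), was near the limit of detection. It had 10, 2 and 3 counts with vehicle and 6, 5 and 5 with TGFβ, below the minimum for the test, and the groups overlapped. Over most of its length its sequence is also that of *Gm43720*, an overlapping annotation on the same strand, so these few counts are uncertain.

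*Sdc4* (ENSMUSG00000017009) encodes syndecan-4, the syndecan of focal adhesions, which binds protein kinase C alpha and alpha-actinin. It lies on the minus strand of chromosome 2 (164424247 to 164443887). Its counts were 6200, 4892 and 6704 with vehicle and 3022, 2414 and 3257 with TGFβ, or 195, 165 and 225 CPM against 110, 86.4 and 114 CPM. Library b was the lowest of each group, and all TGFβ libraries lay below all vehicle libraries. The log2 fold change was -0.91 (SE 0.13, adjusted p = 0.0014).

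*Sdc1* (ENSMUSG00000020592) encodes syndecan-1, known from epithelia and, as CD138, from plasma cells. It lies on the plus strand of chromosome 12 (8771323 to 8793715). Its level was steady within the groups, at 120, 120 and 116 CPM with vehicle and 90.0, 86.5 and 97.8 CPM with TGFβ. The fall was therefore small but larger than the spread between replicates: the log2 fold change was -0.37 (SE 0.05, 95% interval -0.49 to -0.25, adjusted p = 0.00104). The plasma cell markers *Jchain* and *Mzb1* and the epithelial markers *Epcam*, *Cdh1*, *Krt8* and *Krt19* each had a mean under 1 CPM. Others of the same lists were over it: *Xbp1* of the plasma cell list (140 CPM), and *Upk3b* (24.3 CPM) and *Wt1* (3.64 CPM) of the mesothelial and epithelial list. The part of either list in the values of *Sdc1* was not tested.

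*Sdc2* (ENSMUSG00000022261) encodes syndecan-2, the syndecan typical of fibroblasts and other mesenchymal cells, on the plus strand of chromosome 15 (32920723 to 33034935). It stood at 454, 462 and 419 CPM with vehicle and 482, 517 and 451 CPM with TGFβ, and the groups overlapped. The log2 fold change was 0.12 (95% interval -0.03 to 0.27, adjusted p = 0.172). *Sdc3* (ENSMUSG00000025743) encodes syndecan-3, first known from neurons, on the plus strand of chromosome 4 (130792537 to 130826319). Its libraries held 500.8, 571 and 522 CPM with vehicle and 484, 522 and 474 CPM with TGFβ, with a log2 fold change of -0.11 (95% interval -0.25 to 0.04, adjusted p = 0.217). For both, the interval limits any change to well under that of *Sdc4* or *Gpc6*. The letters of the libraries follow the order of the columns, whose headers carry no replicate number, so whether libraries of the same letter share a cell preparation is not known.

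**Figure D2:**
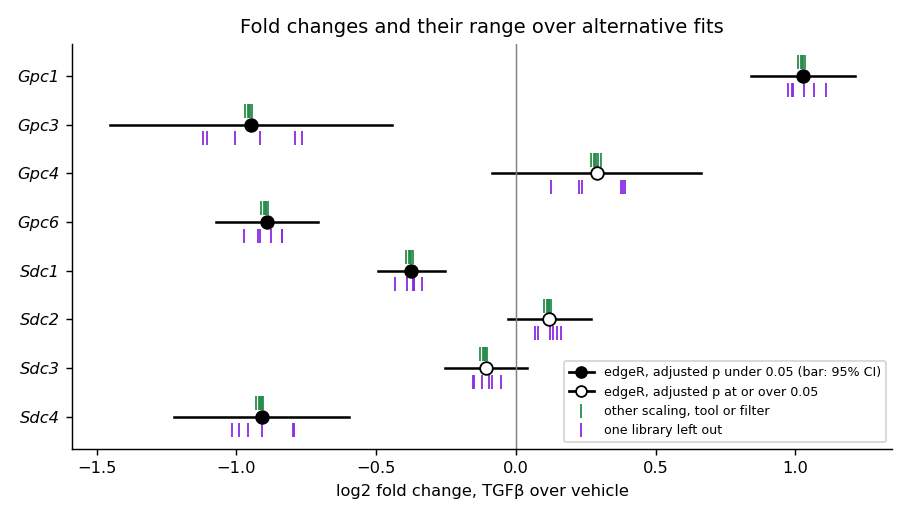
Log2 fold change (TGFβ over vehicle) of the 8 members tested, with 95% intervals (filled circles for an adjusted p under 0.05), green ticks for 6 other choices of scaling, tool or filter and purple ticks for fits with 1 library left out. *Gpc1* lies at 1.03 and *Gpc3*, *Gpc6* and *Sdc4* between -0.95 and -0.89, and no tick of a called member crosses 0.

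To compare levels between genes, CPM were divided by a length in kilobases, that of each gene's annotated exons merged over its protein-coding transcripts. This length need not be that of the transcripts expressed in these cells. With vehicle the order per length was *Sdc2* (126 ± 6.48 CPM per kilobase, SD, n = 3), *Gpc4* (112 ± 23.5), *Sdc3* (104.5 ± 7.14), *Gpc6* (102 ± 6.51), *Sdc4* (79.3 ± 12.2), *Sdc1* (36.4 ± 0.77), *Gpc3* (8.05 ± 1.88), *Gpc1* (6.43 ± 0.34) and *Gpc2* (0.0622 ± 0.0518). Neighbours in this order overlapped among the first 4 genes and between *Gpc3* and *Gpc1*, and were apart elsewhere. With TGFβ the order was *Gpc4* (137 ± 18.7) and *Sdc2* (137 ± 9.36), which overlapped, followed by *Sdc3* (97.0 ± 4.98), *Gpc6* (55.1 ± 5.36), *Sdc4* (42.2 ± 6.13), *Sdc1* (28.1 ± 1.78), *Gpc1* (13.1 ± 1.32), *Gpc3* (4.17 ± 1.03) and *Gpc2* (0.0740 ± 0.00943), each apart from the next. *Gpc1* and *Gpc3*, which overlapped with vehicle, were thus in separate ranges with TGFβ, with *Gpc1* above *Gpc3*. *Gpc1* nevertheless remained a minor glypican transcript, at 13.1 against 137 CPM per kilobase for *Gpc4*.

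Summed per length, the 5 glypicans came to 199 to 248 CPM per kilobase with vehicle and 185 to 227 with TGFβ, which overlapped. Their makeup differed: *Gpc4* held 42.7% to 52.4% of the sum with vehicle and 62.6% to 67.6% with TGFβ, and *Gpc6* 40.9% to 49.6% and 24.8% to 27.3%. *Gpc1* went from 2.54% to 3.39% of the sum with vehicle to 5.32% to 7.57% with TGFβ. The 4 syndecans summed to 343 to 348 CPM per kilobase with vehicle and 298 to 311 with TGFβ, which did not overlap. *Sdc4* held 19.3% to 26.3% of that sum with vehicle and 11.3% to 15.6% with TGFβ, and *Sdc2* 34.1% to 37.7% and 43.0% to 47.1%. These are shares of mRNA per length, given as a description.

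**Figure D3:**
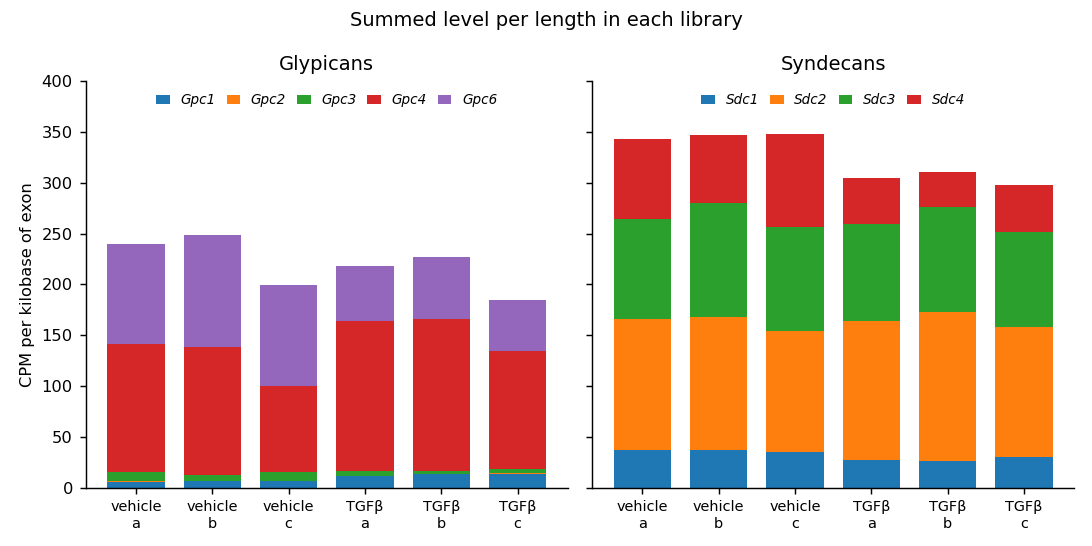
Stacked bars of CPM per kilobase of exon for the glypicans (left) and syndecans (right), 1 bar per library. The *Gpc6* segment is 98.0 to 110 CPM per kilobase in the vehicle bars and 50.5 to 61.0 in the TGFβ bars, and the syndecan bars are 298 to 311 high with TGFβ against 343 to 348 with vehicle.

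Ratios of the counts of 2 paralogues within a library do not depend on how libraries are scaled. There were 5 pairs to compare, and the smallest p that 3 libraries against 3 allow is 0.1 (0.125 after Benjamini-Hochberg adjustment over the pairs). *Gpc4* had 0.93, 0.83 and 0.62 counts for each count of *Gpc6* with vehicle and 1.98, 1.77 and 1.66 with TGFβ, a difference in the mean log2 ratio of 1.20 (two-sided exact permutation test, p = 0.1). *Gpc6* thus had more counts than *Gpc4* in each vehicle library and fewer in each TGFβ library. The transcripts differ in length, and per kilobase *Gpc4* was already above *Gpc6* in vehicle libraries a (125.5 and 98.0 CPM per kilobase) and b (126 and 110 CPM per kilobase). The neighbours on the X chromosome, *Gpc3* and *Gpc4*, had ratios of 0.0786, 0.0484 and 0.1003 with vehicle and 0.0348, 0.0207 and 0.0390 with TGFβ, a difference of -1.25 in the mean log2 ratio (exact p = 0.1). *Sdc2* had 2.33, 2.80 and 1.86 counts per count of *Sdc4* with vehicle and 4.37, 5.98 and 3.95 with TGFβ, a difference of 1.03 (exact p = 0.1). For *Sdc1* to *Sdc3* the difference was -0.27, again with no overlap between the groups (exact p = 0.1). For *Gpc1* to *Gpc2*, where the denominator is 2 to 10 counts, the groups overlapped (difference 0.46, exact p = 0.8), and the sign turned without vehicle library a (-0.22).

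**Figure D4:**
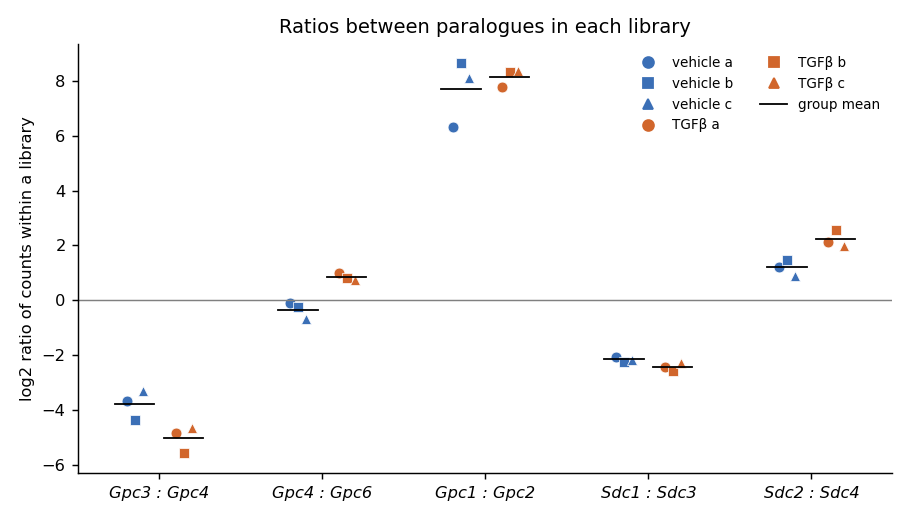
Log2 ratio of counts between paralogues, 1 point per library with group means as lines (blue vehicle, orange TGFβ). The groups are apart for 4 pairs, and *Gpc4* to *Gpc6* moves from below 0 (mean -0.35) to above 0 (mean 0.84).

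For the members that fell and have an entry in the RefSeq promoter table, the 250 bases before the RefSeq transcription start (GRCm38.p6) are shown. This lets the letters around members that moved the same way be compared. Capitals mark matches, on either strand, to the GC box GGGCGG bound by SP1-like factors, or to CAGAC, a form of the SMAD motif. The sequences run 5′ to 3′ on the strand of the gene, for *Gpc3* at chrX:52613975-52614224 (minus), for *Sdc4* at chr2:164443189-164443438 (minus) and for *Sdc1* at chr12:8771146-8771395 (plus). By the GENCODE positions given above, *Sdc4* and *Sdc1* start further upstream than in RefSeq. The *Sdc4* window thus lies within the GENCODE gene, and the *Sdc1* window partly within it.
Gpc3: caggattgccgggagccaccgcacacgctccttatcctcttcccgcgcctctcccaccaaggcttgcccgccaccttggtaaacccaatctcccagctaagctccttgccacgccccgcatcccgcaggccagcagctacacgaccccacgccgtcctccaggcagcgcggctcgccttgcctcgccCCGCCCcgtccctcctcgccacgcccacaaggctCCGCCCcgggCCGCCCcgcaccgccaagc
Sdc4: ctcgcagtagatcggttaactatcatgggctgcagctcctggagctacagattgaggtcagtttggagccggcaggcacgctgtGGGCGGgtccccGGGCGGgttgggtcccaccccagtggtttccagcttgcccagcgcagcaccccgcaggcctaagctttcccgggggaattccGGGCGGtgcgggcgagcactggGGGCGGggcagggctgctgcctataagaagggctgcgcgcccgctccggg
Sdc1: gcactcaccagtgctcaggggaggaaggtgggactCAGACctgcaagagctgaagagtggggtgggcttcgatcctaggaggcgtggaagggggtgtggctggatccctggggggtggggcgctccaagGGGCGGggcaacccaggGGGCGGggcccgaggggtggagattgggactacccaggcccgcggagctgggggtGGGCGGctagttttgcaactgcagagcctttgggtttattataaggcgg
The GC box occurred 3 times in the *Gpc3* window, 4 times in the *Sdc4* window and 3 times in the *Sdc1* window. It occurred at least once in 32.9% of the 27025 promoters of this length in the table. CAGAC occurred once in the *Sdc1* window and in 42.1% of all promoters. No letters of these windows matched AP-1 (TGANTCA, in 6.87% of all promoters), TEAD (GGAATG, 12.6%) or the TATA box (TATAAA, 13.0%). The GC content was 71.6%, 68.0% and 66.0%, against a median of 52.0% over all promoters. *Sdc3*, which did not pass the threshold, also had 3 GC boxes, and 2 matches to CAGAC. The GC box was in the windows of the other members with an entry too. It occurred 1 time for *Gpc4*, which did not pass the threshold, 3 times for *Gpc2*, which was not tested, and 1 time for *Gpc5*, which had no row. *Gpc1*, *Gpc6* and *Sdc2* had no entry in the table. A match is a description of the letters and not a bound site.

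The chains on these core proteins are made in the Golgi in steps, and genes for each step were taken as lists. The counts below are to be read beside the 40.7% of all genes tested that were called, 20.5% higher and 20.1% lower. Over the linker and chain synthesis list, 5 of 12 genes tested rose, 1 fell and 6 did not pass the threshold (50% called), with a median log2 fold change of 0.10 beside -0.00129 over all genes. *Ext1*, a subunit of the polymerase that extends the chain, had 240, 240 and 247 CPM with vehicle and 439, 435 and 453 CPM with TGFβ, a log2 fold change of 0.87 (SE 0.04, adjusted p = 8.51e-06). Its partner subunit *Ext2* stood at 183 ± 4.33 and 171 ± 7.32 CPM (SD, n = 3 each) and did not pass the threshold (log2 fold change -0.10, adjusted p = 0.126). *Extl1*, a related glycosyltransferase of low expression (2.11 and 3.80 CPM), rose by 0.85. *Xylt1*, which attaches the first xylose to the core protein, rose by 0.59 (14.6 and 22.0 CPM), while its relative *Xylt2* (28.7 and 29.3 CPM) did not pass the threshold (0.03, adjusted p = 0.648). *Pxylp1*, a phosphatase that acts on that xylose, fell (-0.70, adjusted p = 0.000174).

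Transcripts of the enzymes that sulfate and reshape the chain split in direction, with 3 of 10 tested higher, 3 lower and 4 not past the threshold (60.0% called, median log2 fold change -0.13). *Hs2st1*, the 2-O-sulfotransferase, rose from 77.5 ± 3.24 to 129 ± 5.15 CPM (SD, n = 3 each, log2 fold change 0.73, adjusted p = 3.49e-05). *Glce*, the epimerase that acts just before it, rose by 0.62, and the 6-O-sulfotransferase gene *Hs6st1* by 0.58. *Ndst3*, a low-level N-deacetylase and N-sulfotransferase, fell from 3.80, 4.72 and 3.82 CPM to 1.32, 1.15 and 1.02 CPM (log2 fold change -1.82, adjusted p = 0.000146), while the abundant *Ndst1* did not pass the threshold (196 ± 9.21 and 186 ± 12.3 CPM, adjusted p = 0.360). The 3-O-sulfotransferase genes *Hs3st3a1* (-0.79, adjusted p = 0.0334) and *Hs3st1* (-0.67, adjusted p = 0.0291) fell. The call of *Hs3st3a1* was lost without any 1 of the libraries but TGFβ library b (adjusted p 0.0536 to 0.107). That of *Hs3st1* was lost without vehicle library a or c or TGFβ library a or b (0.0547 to 0.105). *Hs6st3*, *Hs3st4* and *Hs3st6* had 2, 8 and 12 counts over the 6 libraries and were not tested, and *Ndst4*, *Hs3st2* and *Hs3st5* were not analysed here.

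Of the 7 genes that supply activated sulfate and uronic acid, 4 rose and none fell (57.1% called, median log2 fold change 0.19). *Papss2*, which makes the sulfate donor PAPS, rose by 0.76 (adjusted p = 3.30e-05), *Impad1*, which clears the by-product of sulfation from the Golgi, by 0.34 and the sulfate transporter gene *Slc26a2* by 0.26. The remaining one, *Papss1*, rose by 0.19 (adjusted p = 0.0224), a call lost without vehicle library b or c or TGFβ library a or b (adjusted p 0.0632 to 0.0742).

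After secretion, heparan sulfate is edited at the cell surface. *Sulf1*, an extracellular sulfatase that removes 6-O-sulfates and so alters ligand binding, rose from 534, 538 and 560 CPM to 804, 856 and 793 CPM (log2 fold change 0.59, adjusted p = 9.46e-05). Its relative *Sulf2* varied widely within the groups (174 ± 39.5 and 212 ± 34.6 CPM) and did not pass the threshold (95% interval -0.13 to 0.70). *Hpse*, which encodes heparanase, the enzyme that cuts the chain, fell by 0.70 on the log2 scale (7.51 to 4.61 CPM, adjusted p = 0.0339). That call was lost without vehicle library b or c or TGFβ library a or b (adjusted p 0.0571 to 0.109, log2 fold change -0.47 without vehicle library c). With all libraries, 2 of the 3 genes of this list that were tested were called (66.7%), and in those fits 1 was. *Hpse2* had 1 count.

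Transcripts of the lysosomal enzymes that take the chain apart were lower or not past the threshold: 5 of 8 fell and none rose (62.5% called, median log2 fold change -0.41). *Sgsh*, the N-sulfamidase lost in Sanfilippo syndrome, had 78.0, 82.7 and 83.7 CPM with vehicle and 41.5, 45.2 and 43.9 CPM with TGFβ (log2 fold change -0.90, SE 0.05, adjusted p = 1.35e-05). *Arsg* (-0.50) and *Naglu* (-0.44) also fell, and *Gusb* did not pass the threshold (-0.04, adjusted p = 0.615).

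Release of the core proteins from the surface involves metalloproteinases for syndecans and lipases for glypicans. Convertases, which cut glypican core proteins during secretion, were put on the same list. Of 13 genes of this list tested, 4 rose and 5 fell (69.2% called), with a median log2 fold change of -0.15. In DESeq2 and in limma-voom, 7 were called. *Gdpd2* (-2.98, adjusted p = 0.0493) had a mean of 0.754 CPM and overlapped between the groups. Its call was lost in both tools and without any 1 library but vehicle library b (adjusted p 0.0530 to 0.158). That of *Gde1* (0.18, adjusted p = 0.0333) was lost in DESeq2, with upper quartile scaling and without vehicle library b or any 1 TGFβ library (0.0558 to 0.1025). *Mmp3* fell from 682, 689 and 1238 CPM to 239, 276 and 499.8 CPM (log2 fold change -1.36, SE 0.33, adjusted p = 0.0126), with library c the highest of each group. *Adam17*, the main inducible sheddase of many surface proteins, fell by 0.50 (adjusted p = 0.000531), whereas *Adam10* rose by 0.23 (adjusted p = 0.016), a call lost without vehicle library c or TGFβ library a or b (adjusted p 0.0502 to 0.0551). *Mmp9* (-0.98, adjusted p = 0.0397) overlapped between the groups in CPM and was lost in limma-voom (adjusted p = 0.0684) and without vehicle library b or c or TGFβ library a or b (0.0849 to 0.123). *Furin*, a convertase that cuts glypican core proteins during secretion, rose by 0.49 (adjusted p = 0.000453). *Pcsk5*, a related convertase, rose by 0.67 (adjusted p = 0.0287), with TGFβ library c at 101 CPM and the other TGFβ libraries at 60.1 and 59.7 CPM, and its call was lost without any 1 vehicle library (adjusted p 0.0564 to 0.0866). Without TGFβ library c the log2 fold change of *Pcsk5* was 0.36 (adjusted p = 0.00436). Without TGFβ library a or TGFβ library b, 5 of these genes were called in place of 9. *Notum*, also on this list, had 6 counts over the 6 libraries and was not tested.

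Inside the cell, 3 of the 10 partners of the syndecan tails rose and none fell (median log2 fold change 0.06). The share called, 30.0%, was below that of all genes tested. *Actn1*, the alpha-actinin that binds the tail of syndecan-4, rose from 846.5 ± 42.2 to 1569 ± 76.3 CPM (SD, n = 3 each, log2 fold change 0.89, adjusted p = 3.56e-05). *Prkca*, the kinase bound by that tail, rose by 0.48 and *Gipc1*, a PDZ scaffold, by 0.24. The transcript of syndecan-4 itself fell in the same libraries, as given above. The PDZ proteins syntenin (*Sdcbp*, -0.11, adjusted p = 0.0859) and *Cask* (0.00132, adjusted p = 0.985) did not pass the threshold.

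**Figure D5:**
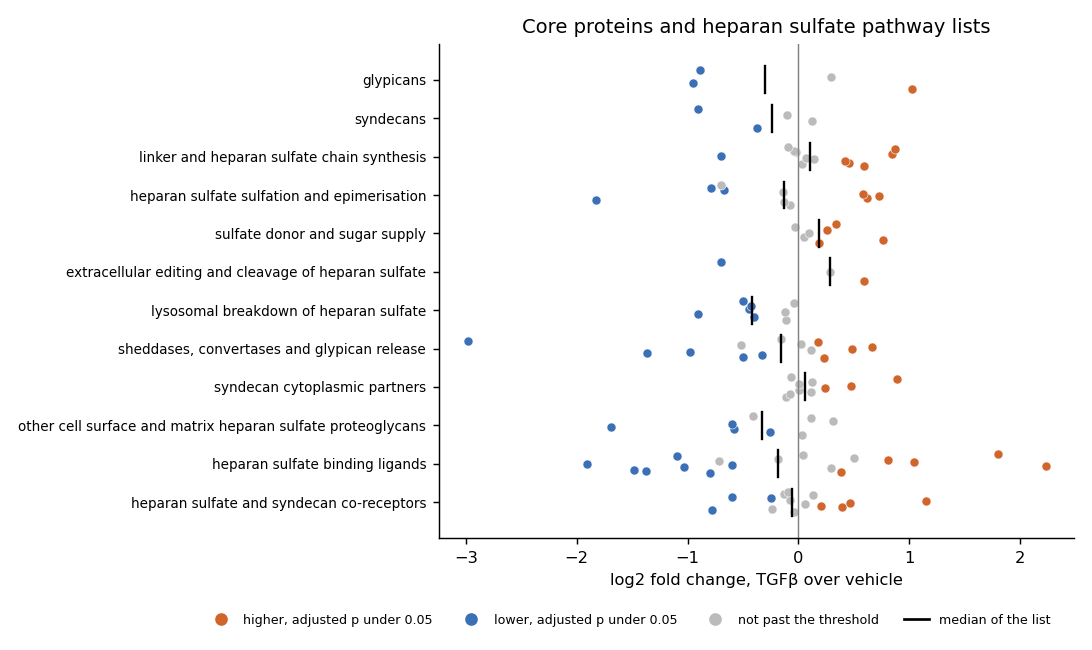
Log2 fold change (TGFβ over vehicle) of every gene tested in the core protein and pathway lists, 1 point per gene (orange higher and blue lower at an adjusted p under 0.05, grey not past it), with a line at each list's median. The lysosomal list has 5 blue and no orange points and a median of -0.41, and the sulfate donor list 4 orange and no blue points and a median of 0.19.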

How the data were processed

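Stranded poly(A) libraries were sequenced single-end with 75-base reads, and the authors deposited whole-number counts of reads per gene, not normalized, for 25140 genes in 3 vehicle and 3 TGFβ libraries. Per the labels, reads were aligned to mm10 and DESeq2 was used. The aligner, counter, annotation and use of strand are not given in the sources used here. The study's methods describe biological replicates and a longer time in low serum than the labels. The authors' normalized means, fold changes, standard errors, test statistics and p-values were left unused. All 6 count columns were used.

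From the counts, edgeR 4.0.16 (R 4.3.3) gave TMM factors, CPM, the filterByExpr filter (14334 genes kept) and the quasi-likelihood test of TGFβ against vehicle with no covariate, with Benjamini-Hochberg adjustment over all genes kept and a threshold of 0.05. Single values were compared by a two-sided exact permutation test, which cannot go below p = 0.1. On simulated counts with 200 of 25140 genes changed, these steps recovered 87.0% of the genes changed by 1 on the log2 scale and 54.0% of those changed by 0.5. Of the calls, 6.62% were false, and 95.3% of the 95% intervals held the true value. The simulation changed a far smaller share of genes than the 40.7% called here. Its recovered and false shares therefore need not hold for these data. Libraries held 27851677 to 31072338 counts, and of the members found only *Gpc2* had too few counts for the test. Lengths, positions and coding sequences are from GENCODE M21 (GRCm38), which held 25086 of the table's identifiers, and promoters from RefSeq (GRCm38.p6). *Gpc2* to *Gpc5* and *Sdc1*, *Sdc3* and *Sdc4* had a promoter entry, 7 of the 10.

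The members, the 10 pathway lists and the marker lists were chosen with earlier results of these data known, so counts over a list are a description. All members are named. Of each pathway list, the called genes with the 3 largest rises and falls among those with a mean of at least 1 CPM are named, with those that had no row or too few counts. *Ext2*, *Xylt2*, *Ndst1*, *Hs6st2*, *Sulf2*, *Papss1*, *Gusb*, *Sdcbp* and *Cask* were named after their values were seen, for comparison. *Hspg2*, *Cd44*, *Gde1*, *Gdpd2*, *Fgf1*, *Fgf10*, *Hgf* and *Mdk* were also named outside this rule. The alternatives were DESeq2 size factors or upper quartile scaling in edgeR, DESeq2 1.42.0, limma-voom (limma 3.58.1), no filter, keeping genes with 1 CPM in at least 3 libraries, omission of each library, an adjusted p of 0.01 and a log2 fold change beyond 1.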

Additional observations from a re-analysis of the deposited data

How the results depend on the processing

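The 5 calls among the glypicans and syndecans, 1 higher and 4 lower, held under all 6 other choices of scaling, tool and filter and with any 1 library left out. At an adjusted p of 0.01, 4 remained (not *Gpc3*). With a log2 fold change beyond 1 as well, 1 did (*Gpc1*). No alternative brought *Gpc4* (log2 fold change 0.13 to 0.39), *Sdc2* (0.07 to 0.16) or *Sdc3* (-0.15 to -0.05) past the threshold. The within-library ratio of *Gpc1* to *Gpc2* ranged from -0.22 to 0.93 with a library left out, its sign turning without vehicle library a. Ratios per kilobase gave the same differences, as lengths cancel.

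Over all genes, 3595 were called at an adjusted p of 0.01 and 971 with a log2 fold change beyond 1. At 0.01 the number called was 6 for chain synthesis, 4 for sulfation, 2 for the sulfate donor list, 1 for extracellular editing and 3 for lysosomal breakdown. It was 3 for the sheddases, 3 for the syndecan partners, 3 for the other proteoglycans, 8 for the ligands and 5 for the co-receptors. Beyond a log2 fold change of 1 it was 0 for chain synthesis, sulfate donors, extracellular editing, lysosomal breakdown and the syndecan partners. It was 1 for sulfation, 2 for the sheddases, 1 for the other proteoglycans, 8 for the ligands and 1 for the co-receptors. With 1 library left out, 4 to 5 genes of sulfation, 3 to 4 of sulfate donors, 1 to 2 of extracellular editing and 5 to 7 sheddase genes were called. The ranges were 3 to 4 for the other proteoglycans, 9 to 13 for the ligands and 5 to 8 for the co-receptors. Chain synthesis kept 6, lysosomal breakdown 5 and the syndecan partners 3. The cause of these differences was not tested beyond the stricter thresholds and fewer samples themselves.

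No paired analysis was possible because the count columns carry no replicate number. Where a library was left out, its group kept 2 libraries. *Gpc2*, *Notum*, *Hpse2*, *Spock1* and the sulfotransferase genes with at most 12 counts had too few counts to be tested.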

Other observations

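Transcripts of other proteins that carry heparan sulfate were lower or did not pass the threshold with TGFβ: 4 of 8 tested fell (50% called) and none rose. *Cd44* (log2 fold change 0.31, adjusted p = 0.0624) was called higher in DESeq2 (adjusted p = 0.0282), with no filter on low counts (0.0302) and without TGFβ library b (0.0254). *Tgfbr3*, which encodes betaglycan, a TGFβ co-receptor that can carry heparan sulfate, had 63.0, 70.8 and 75.6 CPM with vehicle and 20.4, 20.9 and 23.3 CPM with TGFβ, and its log2 fold change of -1.70 (edgeR adjusted p = 8.73e-06) was larger in size than that of any glypican or syndecan tested. *Nrp1*, a co-receptor for VEGF and semaphorins, fell by 0.60 on the log2 scale. *Col18a1*, the basement membrane collagen that yields endostatin, fell by 0.58 (adjusted p = 0.0444), a call lost in DESeq2 (adjusted p = 0.087) and without vehicle library b or c or TGFβ library a or b (0.0530 to 0.148, log2 fold change -0.37 without vehicle library c). Perlecan (*Hspg2*), the most abundant of them, stood at 3272 ± 172 and 3340 ± 569 CPM (SD, n = 3 each), and its log2 fold change of 0.03 did not pass the threshold (adjusted p = 0.867). *Spock1* had 15 counts over the 6 libraries and was not tested.

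Among 17 ligands that bind heparan sulfate, 5 rose and 7 fell (70.6% called). With 1 library left out, 9 to 13 were called. Of those that fell, *Fgf1* lost its call without vehicle library a or b or TGFβ library a (adjusted p 0.0552 to 0.0634). *Hgf* lost it without vehicle library c or TGFβ library a or b (0.1065 to 0.1215). *Mdk* lost it without vehicle library a or c or TGFβ library a or b (0.0525 to 0.0771). *Fgf10*, which also fell, had a mean of 0.524 CPM. *Hbegf*, the heparin-binding ligand of the EGF receptor, rose from 17.6, 13.4 and 18.4 CPM to 78.4, 59.5 and 94.0 CPM (log2 fold change 2.23, adjusted p = 8.56e-05). *Thbs1* (1.80) and *Vegfa* (1.04) also rose. Among ligands with a mean of at least 1 CPM, the falls were led by *Ptn*, the growth factor pleiotrophin and a ligand of syndecan-3, whose vehicle libraries averaged 47.0 ± 4.64 CPM and TGFβ libraries 12.5 ± 0.567 CPM (SD, n = 3 each, log2 fold change -1.90, adjusted p = 7.59e-06), followed by *Fgf7* (-1.37) and *Bmp4* (-1.10). Of 14 receptors that work with these proteoglycans, 4 rose, all of them integrin subunits, and 3 fell (50% called). *Itga5*, the fibronectin receptor subunit, rose by 1.15 (adjusted p = 0.000121), *Itgb5* by 0.46 and *Itgav* by 0.39. *Fgfr2* (-0.78), *Ptprd* (-0.60) and *Ptprf* (-0.25) fell. The last call was lost without vehicle library a or b or TGFβ library a or c (adjusted p 0.0691 to 0.138) and that of *Ptprd* without vehicle library a or b (0.0513 to 0.0557). *Spock3* and *Wnt3a* were not analysed here.

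Of the remaining marker lists, that of pericytes and smooth muscle summed to 249.8 to 284 CPM per library with vehicle and 135 to 165 CPM with TGFβ, with *Cspg4* higher (log2 fold change 1.45) and *Notch3* lower (191 to 224 CPM with vehicle, 48.7 to 63.0 CPM with TGFβ), and *Rgs5*, *Kcnj8*, *Abcc9* and *Myh11* not past the threshold. The Schwann cell and neuronal list summed to 63.5 to 101 and 157 to 227 CPM, with *Tubb3* (58.0 to 96.9 and 153 to 224 CPM) higher and *Ngfr* lower among 4 tested genes. The cardiomyocyte list summed to 38.5 to 59.6 and 27.3 to 40.6 CPM, with *Myh6*, *Tnni3*, *Myl2*, *Nppa* and *Ryr2* each under 1 CPM, and the plasma cell list to 128 to 139 and 140.5 to 158 CPM, nearly all of it *Xbp1*. The fibroblast list, of which 6 of 8 genes fell, summed to 37775 to 42549.9 and 41409 to 44867 CPM, and the cardiac fibroblast list, of which 3 of 6 fell, to 1040 to 1206 and 752 to 796 CPM. The part of these levels in the values of the glypicans and syndecans was not tested.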
